A study of Mus musculus with 141 samples.

Results

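The urea cycle, the arginine made within it and the synthesis of creatine from arginine were followed through 10 genes in the RNA of liver, lung and kidney: Nags, Cps1, Otc, Slc25a15, Ass1, Asl, Arg1, Arg2, Gatm and Gamt. They were chosen by name, as the enzymes and the carrier of these pathways, with earlier results of these data known. They are 10 of 24423 genes measured in each library. All 10 were found under these names in every library, and all 10 passed the filter on low counts that left 12127 genes for the comparisons between tissues, because each had more than 1 CPM, a count scaled to the size of its library, in at least 30% of the libraries.

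The mice came from 47 strains of the Collaborative Cross (CC001 and so on), a panel of recombinant inbred mice descended from a shared set of founder strains. One adult male per strain, 8 to 12 weeks old, was fed an NTP 2000 wafer diet and placed on weekdays over 2 weeks in mesh chambers ventilated with clear air, and whole liver, lung and kidney were taken from each mouse. Each tissue gave 1 RNA-seq library, so that each group is 1 tissue with 47 libraries from 47 mice, the 3 tissues of a strain share a mouse, and the strains are the replicates. With 1 mouse per strain, the difference between strains cannot be told apart from the difference between single mice, and females were not studied.

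In textbook biochemistry, ammonia enters the urea cycle inside liver mitochondria as carbamoyl phosphate, is joined to ornithine to make citrulline, and leaves the cell as urea once citrulline has been turned through argininosuccinate into arginine and arginine has been split. The kidney takes up circulating citrulline and turns it into arginine for the rest of the body, which needs the argininosuccinate steps without the mitochondrial ones. Creatine is made in a pair of steps that are usually placed in different organs, the formation of guanidinoacetate from arginine and glycine in kidney and its methylation to creatine in liver.

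On the Build37 (NCBIM37) mouse genome, the build of the alignments, the genes of the cycle lie apart from each other. Cps1 spans chr1:67169600-67277833 on the plus strand, Otc chrX:9829431-9898150 on the plus strand, Ass1 chr2:31325727-31376192 on the plus strand, Asl chr5:130487128-130501002 on the minus strand, Arg1 chr10:24635014-24647276 on the minus strand and Nags chr11:102006827-102010791 on the plus strand. Arg2 spans chr12:80231764-80257288 on the plus strand, Slc25a15 chr8:23486026-23509093 on the minus strand, Gatm chr2:122420203-122437039 on the minus strand and Gamt chr10:79720896-79723757 on the minus strand. For 8 of the 10 genes every 50-base window of the transcript that could be placed in the genome was found once, and for Cps1 99.5% were. Ass1 was the exception: 853 of its 1458 windows (58.5%) were found once, the others having a second copy elsewhere, so that its level is uncertain where the counting kept only uniquely aligned reads. Exons of Arg2 share 285 of 1428 bases with Vti1b on the opposite strand and exons of Nags share 443 of 2838 bases with Gm11586 on the opposite strand, and whether strand was used in the counting is not given in the sources used here.

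The promoters of Otc, Ass1, Gatm and Gamt are shown because Otc and Gamt were higher in liver, Gatm was higher in kidney and Ass1 had a high level in both. Each runs from 250 bases before to 50 bases after the start site in RefSeq on GRCm38.p6, a later build than that of the files, and capitals mark matches on either strand to the TATA box TATAAA, to the element CCAAT, to the GC box GGGCGG, to the motif TTGCNNAA of C/EBP factors or to the nuclear receptor element AGGTCA.
Otc, chrX:10252055-10252354, plus strand: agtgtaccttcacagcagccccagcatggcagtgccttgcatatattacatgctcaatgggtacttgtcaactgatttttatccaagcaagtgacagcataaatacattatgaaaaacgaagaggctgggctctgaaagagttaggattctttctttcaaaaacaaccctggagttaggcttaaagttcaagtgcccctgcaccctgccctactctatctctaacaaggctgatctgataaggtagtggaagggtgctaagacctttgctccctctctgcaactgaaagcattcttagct
Ass1, chr2:31470020-31470319, plus strand: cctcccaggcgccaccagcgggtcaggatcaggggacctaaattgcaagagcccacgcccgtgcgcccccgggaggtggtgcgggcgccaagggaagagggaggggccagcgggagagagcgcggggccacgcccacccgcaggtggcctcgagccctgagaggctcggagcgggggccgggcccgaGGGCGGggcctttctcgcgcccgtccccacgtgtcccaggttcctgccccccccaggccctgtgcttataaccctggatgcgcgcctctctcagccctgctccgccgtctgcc
Gatm, chr2:122611228-122611527, minus strand: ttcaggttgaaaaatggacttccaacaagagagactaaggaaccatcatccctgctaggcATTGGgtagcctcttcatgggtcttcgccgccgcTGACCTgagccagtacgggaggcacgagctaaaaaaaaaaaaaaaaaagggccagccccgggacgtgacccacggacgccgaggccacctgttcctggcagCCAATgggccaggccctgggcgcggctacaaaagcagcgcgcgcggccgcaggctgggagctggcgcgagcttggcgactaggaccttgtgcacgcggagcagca
Gamt, chr10:80260963-80261262, minus strand: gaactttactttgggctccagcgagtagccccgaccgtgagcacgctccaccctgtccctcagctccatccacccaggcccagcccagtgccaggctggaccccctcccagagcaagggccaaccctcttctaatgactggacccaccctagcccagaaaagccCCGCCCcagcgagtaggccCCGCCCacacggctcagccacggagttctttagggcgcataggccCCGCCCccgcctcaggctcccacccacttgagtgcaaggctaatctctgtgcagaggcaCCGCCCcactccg
The Otc window held none of the 5 motifs, which says only that these letters are not there. Ass1 held GGGCGG 63 bases before the start site. Gatm held CCAAT 190 and 55 bases before it and AGGTCA 156 bases before it, and no GGGCGG. Gamt held GGGCGG 4 times, beginning 86, 67 and 22 bases before the start site and 38 bases after it. Nags, also in the table of promoters, held GGGCGG 2 times and AGGTCA once, and both promoters listed for Slc25a15 held GGGCGG, 3 and 5 times. Of 32851 promoters of this length, 35.7% held GGGCGG, 37.4% CCAAT, 16.3% AGGTCA, 13.6% TATAAA and 10.8% TTGCNNAA. Promoters of 6 of the 10 genes were found, and those of Cps1, Asl, Arg1 and Arg2 are not used here.

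Liver libraries held 1738046 to 42158454 counts, lung libraries 2829104 to 17585682 and kidney libraries 3046695 to 15028553, so that 3 counts, taken as the limit of what was resolved, stood for a median of 0.288, 0.321 and 0.364 CPM. The abundant noncoding RNA Rn45s together with Lars2 took between 0.0850% and 81.7% of the TPM (levels scaled to transcript length and to the library) of a library, most in the lung of CC015 and, among livers, in that of CC033 (76.5%). TPM is therefore used to compare genes within a library, and CPM with TMM factors from edgeR to compare tissues and strains. Ranges of TPM over libraries, where given, also carry the differences in this share. Some genes that most cells use were listed at or near 0: Gapdh was at 0 in 84 libraries and Cebpb in every one, and each of these names more than 1 transcript, whereas each of the 10 genes names 1. The labelled tissues carried their markers, with a summed level of 8 hepatocyte markers of 74334 to 197768 CPM in liver against at most 1204 elsewhere, of 4 lung epithelial markers of 5893 to 14492 CPM in lung against at most 158 elsewhere, and of 7 proximal tubule markers of 12548 to 39932 CPM in kidney. In whole tissue, fewer cells of a type and less RNA per cell cannot be told apart.

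Within the liver, Cps1 and Arg1 had the highest levels per transcript length, and the mitochondrial arginase and the first creatine enzyme were at the bottom. Cps1, which makes carbamoyl phosphate and commits ammonia to the cycle, had 935 to 5392 TPM over the 47 livers with a median of 2963. The lowest TPM of Cps1, Arg1, Ass1, Asl, Otc, Slc25a15 and Nags was in each case that of CC033, where Rn45s and Lars2 took 76.5%. By CPM that liver had 10130 for Cps1, beside a median of 10097, and 52.7 for Nags, beside a median of 67.6. Arg1, the cytosolic arginase that releases urea, had 600 to 4042 TPM (median 2021), and lay below Cps1 in 46 of 47 livers. The other steps formed a middle group: Ass1, which makes argininosuccinate, had a median of 626 TPM (210 to 1636), Asl, which splits it into arginine and fumarate, 513 TPM (139 to 1361), and Otc, which makes citrulline, 491 TPM (148 to 840). Neighbours in that group did not keep one order, since Ass1 was above Asl in 32 livers and below it in 15, and Asl was above Otc in 25 and below it in 22. Slc25a15, the mitochondrial carrier that exchanges ornithine for citrulline, had a median of 267 TPM (68.3 to 474), below Otc in 46 of 47 livers. Gamt, which methylates guanidinoacetate to creatine, had a median of 260 TPM (74.4 to 447) and changed places with Slc25a15 in 22 livers. Nags, which makes the N-acetylglutamate that Cps1 needs as an activator, had a median of 53.8 TPM (13 to 90.3), a ratio to Cps1 within the liver of 0.0187 at the median. Gatm, which makes guanidinoacetate, had a median of 10.8 TPM (4.25 to 36.7), and Arg2, the mitochondrial arginase, 0.54 TPM (0 to 3.17), with 29 of 47 livers at or under 3 counts. Gatm lay below Nags and above Arg2 in 47 of 47 livers.

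In kidney Gatm led and Arg1, Cps1, Otc and Nags came last, while Ass1, Asl, Slc25a15 and Gamt kept the same order among themselves by their medians as in liver. Gatm was the most abundant of the 10, with 284 to 1291 TPM and a median of 677. Ass1 followed with a median of 469 TPM (174 to 1423), below Gatm in 36 kidneys and above it in 11, and Asl with 246 TPM (102 to 456), below Ass1 in 47 of 47. Slc25a15 had a median of 164 TPM (47.7 to 262), below Asl in 41 kidneys and above it in 6. Gamt reached a median of 44.8 TPM (14.6 to 101) and Arg2 14.2 TPM (2.03 to 71.6), with Arg2 below Gamt in 39 kidneys and above it in 8. The cycle's liver enzymes were at the foot of the list: medians were 2.82 TPM for Arg1 (0.25 to 25.7), 2.36 TPM for Cps1 (0.13 to 26.5), 0.32 TPM for Otc (0 to 4.4) and 0.21 TPM for Nags (0 to 4.84). Otc was at or under 3 counts in 29 kidneys and Nags in 36, so that their order at the foot was not resolved.

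No gene of the set was abundant in lung. The highest median there was that of Asl, 25.3 TPM (6.40 to 57.8), followed by Gamt at 17.4 TPM (2.52 to 60.5), Gatm at 13.8 TPM (2.36 to 81.8), Arg2 at 10.7 TPM (2.73 to 43.9), Slc25a15 at 10.6 TPM (3.05 to 21.8), Arg1 at 10.2 TPM (0.20 to 88.7) and Ass1 at 9.56 TPM (1.66 to 56.7). From Gatm down to Ass1 each gene was above the next in only 26 to 30 of 47 lungs, so that these neighbours are not separated. Cps1 (median 3.81 TPM), Otc (1.21 TPM) and Nags (0.44 TPM) came last.

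**Figure D1:**
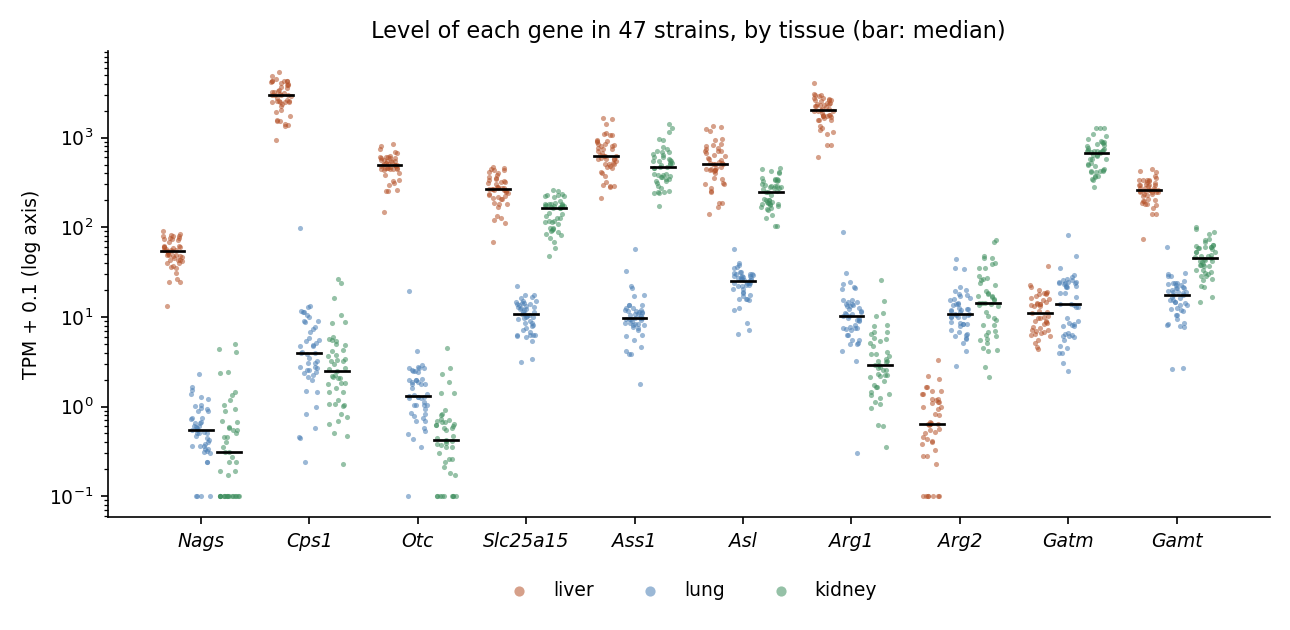
TPM plus 0.1 (log axis) of the 10 genes in each of 47 livers, lungs and kidneys, with a bar at the median of each tissue. The kidney points of Gatm lie above its liver and lung points, those of Ass1, Asl and Slc25a15 lie near the liver points, and those of Nags, Cps1, Otc and Arg1 lie with the lung points.

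Between liver and kidney, all 10 genes differed by limma-voom with strain as a block (an adjusted p, q, no larger than 0.1 over all 12127 genes, and a log2 difference of 1 or more in either direction). Liver was higher for 8 of them, a call made for 15.6% of all genes tested, and kidney for 2, Arg2 and Gatm, a call made for 20.8% (36.4% in either direction). By CPM the direction was the same in 47 of 47 mice for each of the 10 genes. By TPM Ass1 was higher in liver in 35 mice and in kidney in 12, and Asl and Slc25a15 in liver in 43 and in kidney in 4 each. The CPM ranges of the 2 tissues did not overlap for 8 of the 10, against 13.2% of all genes. The median log2 difference of the 10 was 2.74, beside -0.003 over all genes tested.

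The log2 differences farthest from 0 were those of Otc, Cps1, Arg1 and Nags. Cps1 had a mean of 10229 ± 2240 CPM in liver, beside 8.94 ± 16.1 CPM in kidney (SD, n = 47 each), a log2 difference of 11.12 (SE 0.18, limma-voom q = 1.3e-78). Otc had 704 ± 116 CPM against 0.522 ± 1.08 CPM (SD, n = 47), a log2 difference of 11.23 (SE 0.13, limma-voom q = 4.2e-92). Nags had 69.3 ± 12.5 CPM in liver beside 0.442 ± 0.726 CPM in kidney, a log2 difference of 8.25 (SE 0.14, limma-voom q = 6.0e-76), and Arg1 1820 ± 365 CPM against 2.29 ± 3.9 CPM, a log2 difference of 10.32 (SE 0.12, limma-voom q = 1.3e-90). For none of these 4 did a kidney come within reach of a liver: the highest kidney values were 103 CPM for Cps1, 7.08 CPM for Otc, 2.84 CPM for Nags and 26.0 CPM for Arg1, beside lowest liver values of 5667, 480, 46.4 and 1164 CPM. For Otc and Nags, most kidneys were at or under the limit of 3 counts, and their fitted differences depend on the offset added to low counts.

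The steps from citrulline to arginine, and the carrier, were only moderately higher in liver. Ass1 had 678 ± 246 CPM in liver against 266 ± 107 CPM in kidney (SD, n = 47), a log2 difference of 1.38 (SE 0.07, limma-voom q = 9.4e-34). The ranges overlapped for Ass1, 353 to 1593 CPM in liver against 127 to 694 CPM in kidney. Asl had 521 ± 221 CPM against 122 ± 34.3 CPM, a log2 difference of 2.06 (SE 0.08, limma-voom q = 7.0e-46). Slc25a15 had 586 ± 157 CPM against 162 ± 34.3 CPM, a log2 difference of 1.84 (SE 0.05, limma-voom q = 2.7e-56). These 3 were thus within 2.60-, 4.18- and 3.57-fold between the organs, while Cps1 and Otc differed by 2226- and 2406-fold. How far apart they stand depends on the scaling. With total counts and no TMM, where the median of all genes shifted by -0.95, Ass1 had a log2 difference of 0.43 and Slc25a15 of 0.90 and neither passed the fold threshold. Relative to that shift, both remained on the liver side.

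The creatine pair split between the organs. Gatm had 18.1 ± 9.22 CPM in liver against 500 ± 144 CPM in kidney (SD, n = 47), a log2 difference of -4.91 (SE 0.10, limma-voom q = 5.2e-69), or 30.02-fold higher in kidney. Gamt had 148 ± 22.8 CPM in liver against 13.8 ± 4.68 CPM in kidney, a log2 difference of 3.43 (SE 0.07, limma-voom q = 7.3e-72), or 10.7-fold higher in liver. For neither gene did the CPM ranges overlap. Per transcript length, the Gatm to Gamt ratio within a library ran from 0.0167 to 0.149 in liver, with a median of 0.0439 and Gamt higher in 47 of 47 livers. In kidney it ran from 7.70 to 34.3, with a median of 13.3 and Gatm higher in 47 of 47 kidneys. In lung it ran from 0.155 to 6.60, with Gatm higher in 19 lungs and Gamt in 28.

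The arginases also exchanged places. Arg2 had 0.621 ± 0.528 CPM in liver against 8.96 ± 8.12 CPM in kidney (SD, n = 47), a log2 difference of -3.60 (SE 0.19, limma-voom q = 1.8e-34), although the ranges overlapped (0 to 2.40 CPM against 1.44 to 30.7 CPM). The Arg2 to Arg1 ratio of TPM had a median of 0.000258 in liver, and Arg1 was higher in 47 of 47 livers. In kidney the median ratio was 4.77, over the 44 libraries with more than 3 counts of Arg1, and Arg2 was higher in 45 mice of 47. The reads of Arg2 could include some of Vti1b, with which its exons overlap.

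**Figure D2:**
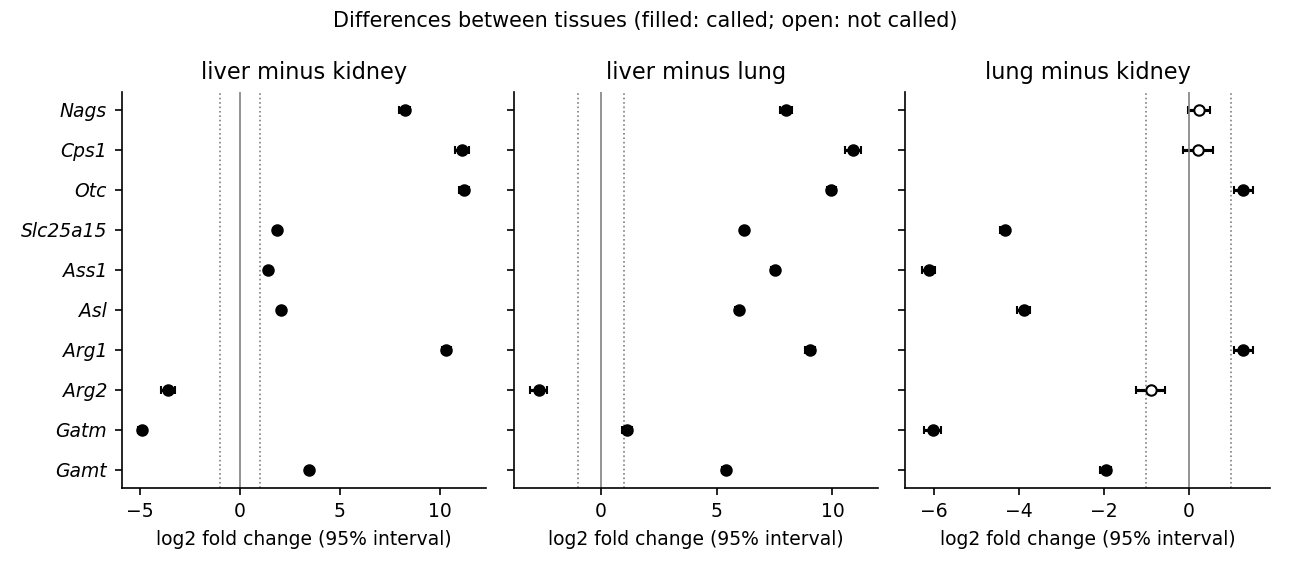
Log2 fold change of each of the 10 genes between liver and kidney, liver and lung, and lung and kidney, from limma-voom over 47 mice; filled points are called (q no larger than 0.1 and a log2 difference of 1 or more in size) and bars are the 95% confidence intervals. In liver against kidney 8 genes lie on the liver side and Arg2 and Gatm on the kidney side.

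Against lung, liver was higher for 9 of the 10 genes, a call made for 23.9% of all genes tested, and lung for Arg2, a call made for 31% (55% in either direction). The CPM ranges did not overlap for 8 of the 10 (26.1% of all genes). The log2 difference between liver and lung was 10.91 (SE 0.17) for Cps1, 9.95 for Otc, 9.04 for Arg1 and 8.01 for Nags. It was 7.50 for Ass1, 6.17 for Slc25a15, 5.95 for Asl and 5.38 for Gamt, so that each of these 8 genes was 41.7-fold or more higher in liver. Arg2 was lower in liver, by a log2 difference of -2.70 (SE 0.19, limma-voom q = 8.0e-26). Gatm had 8.67 ± 6.32 CPM in lung, lower than in liver on this scale (log2 difference 1.12, SE 0.10, limma-voom q = 2.1e-18, higher in liver in 42 of 47 mice, but by TPM in 19). The direction for Gatm was not stable under scaling: it was -0.16 with total counts and -0.24 on log2(TPM + 1), where the median of all genes shifted by -1.44 and -1.21.

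Between lung and kidney 7 of the 10 genes were called, 5 higher in kidney (20.6% of all genes tested) and 2 higher in lung (25.5%), where 46.1% of all genes were called in either direction. The kidney genes were Ass1 (log2 difference of lung and kidney -6.13), Gatm (-6.03), Slc25a15 (-4.33), Asl (-3.89) and Gamt (-1.96), each higher in kidney by CPM in 47 of 47 mice. The CPM ranges of the first 4 of these did not overlap (22.6% of all genes). Otc and Arg1 were higher in lung by 1.28 each, in 33 and 36 of 47 mice. Both were at low levels in both tissues (0.932 ± 1.17 CPM and 4.28 ± 4.05 CPM in lung, SD, n = 47). Otc and Nags failed the count filter on lung and kidney alone and entered this comparison through their liver levels. Most kidneys were at or under 3 counts for Otc, so that its difference depends on the offset added to low counts. The call of Otc is therefore not read as a result. Arg2 was 1.87-fold higher in kidney (log2 difference -0.90, limma-voom q = 1.9e-06), under the fold threshold. For Cps1 the log2 difference of 0.21 had a 95% interval of -0.14 to 0.56 (limma-voom q = 0.25), and for Nags that of 0.24 had an interval of -0.02 to 0.50 (limma-voom q = 0.086).

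The low levels of Cps1, Otc and Arg1 outside the liver moved with those of albumin, whereas for Nags, at few counts, r was near 0. Alb, which hepatocytes make for the plasma, had a median in lung of 0.0468% of its liver median and in kidney of 0.0410%. Cps1 was at 0.0464% in lung and 0.0454% in kidney, nearly the same shares. Otc was at 0.108% and 0.0365%, Arg1 at 0.171% and 0.0697%, and Nags at 0.285% and 0.162%, near the limit of detection. The genes of the arginine and creatine steps stood far above that share in kidney: Ass1 at 39.6%, Slc25a15 at 29.8%, Asl at 25.7% and Gamt at 9.61%. Across the 47 strains, Cps1 and Alb had r = 0.959 in lung (rho = 0.959, and r = 0.957 without the 2 strains farthest from the median) and r = 0.930 in kidney (rho = 0.924, and 0.905 without 2). Otc had r = 0.80 with Alb in lung and 0.784 in kidney, and Arg1 0.574 and 0.858. Nags had r of -0.0006 and 0.095, and Ass1, Asl, Slc25a15 and Gamt lay between -0.19 and 0.24. These correlations are descriptions over libraries that share depth and composition. The libraries highest in Alb were the lungs of CC010 (423 CPM) and CC015 (386 CPM) and the kidneys of CC027 (785 CPM) and CC049 (248 CPM), and Cps1 reached its highest lung level in CC010 (97.9 CPM) and its highest kidney level in CC027 (103 CPM). Of the 8 hepatocyte markers, Ttr (1.37% of liver) and Hpd (3.88%) were above the Alb share in kidney. Whether liver RNA in the other libraries gave these levels was not tested. Without the 4 strains of these libraries, an alternative chosen after seeing the data, the numbers of genes called were 10, 10 and 7, as with all strains.

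**Figure D3:**
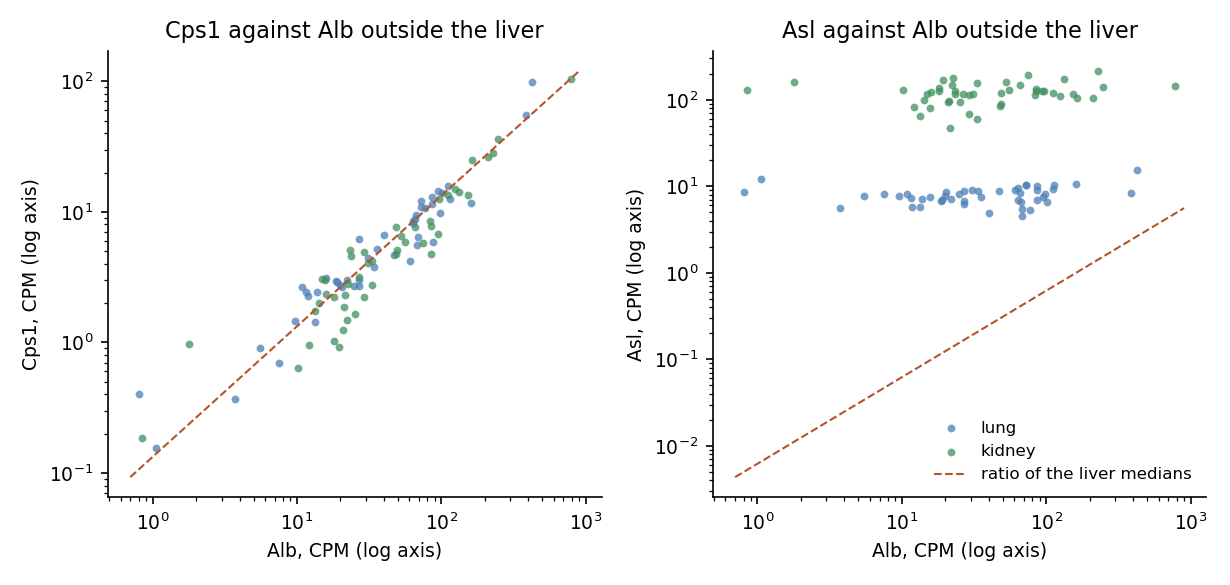
CPM of Cps1 (left) and of Asl (right) against CPM of Alb in each lung and kidney library (both axes log), with the ratio of the liver medians as a dashed line. The Cps1 points follow the line over the range of Alb, whereas the Asl points lie above it at all levels of Alb, the kidneys higher than the lungs.

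How much each gene varied between strains also differed by organ. In liver, the SD of log2 CPM over 47 strains was 0.219 for Gamt, 0.238 for Otc, 0.266 for Nags, 0.270 for Arg1 and 0.314 for Cps1, all under the median of 0.350 for the 7605 genes with a median of at least 20 counts there. It was 0.365 for Slc25a15, 0.441 for Ass1, 0.573 for Asl and 0.681 for Gatm, which lay at the 87.8th percentile of those genes. The SDs of the entry steps and of urea release thus lay below those of the steps from citrulline to arginine. Liver Asl ran from 219 CPM in CC039 to 1090 CPM in CC021, with a median of 472 CPM, and CC010, CC015, CC055 and CC021 lay at or above 1060 CPM while the next strain was at 848 CPM. CC021, CC010 and CC015 were also the 3 highest in liver Cps1, at 16096, 15439 and 15276 CPM beside a median of 10097 CPM. The liver of CC010 was the deepest of the liver libraries. Across livers, r with log2 of the total count was 0.355 for Asl (rho = 0.299) and 0.010 for Cps1 (rho = -0.110). The part of depth in the Asl levels was not tested. Liver Ass1 set a different group apart, CC044, CC043 and CC040 with 1309, 1467 and 1593 CPM, while the next was at 940 CPM and the median at 651 CPM.

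In kidney, Slc25a15 had an SD of 0.317, Gatm of 0.419, Asl of 0.435, Gamt of 0.479 and Ass1 of 0.515, and Arg2 stood out with 1.16, at the 97.8th percentile of 8799 genes, whose median was 0.321. The counting error alone gave an SD of 0.24 at the median depth of Arg2 there. Kidney Arg2 ran from 1.44 CPM in CC017 to 30.7 CPM in CC024, with a median of 5.65 CPM, and 6 strains (CC011, CC028, CC035, CC004, CC044 and CC024) lay at or above 21 CPM while the next was at 15.1 CPM. In lung, Gatm had an SD of 1.03, at the 97.1th percentile. The large SDs of Cps1, Otc and Arg1 in lung and kidney (1.04 to 1.64) go with the level of Alb in the same libraries, as described above, and for Nags in lung counting error alone gave 1.01, above the SD of 0.804.

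The spread of 2 tissues was compared within strains by the Pitman-Morgan test with 100000 swaps. Of 30 comparisons, 18 were called at q of at most 0.1. Between liver and kidney, Cps1, Otc, Arg1, Nags and Gamt were more variable in kidney (q = 0.00014 for the first 4 and 0.0022 for Gamt), a call made for 5.2% of all genes, and Gatm in liver (q = 0.0011), a call made for 29.8%. Between liver and lung, Cps1, Otc, Ass1, Arg1, Nags, Gatm and Gamt were more variable in lung (4.78% of all genes) and Asl and Arg2 in liver (42.7%). Between lung and kidney, Arg2 and Nags were more variable in kidney (17%) and Gatm in lung (5.8%). The 8 comparisons called with at least 20 counts at the median in both tissues and no strong relation to Alb were Gatm between liver and kidney, between liver and lung and between lung and kidney, Ass1 and Asl between liver and lung, Gamt between liver and both other tissues, and Arg2 between lung and kidney. In the other 10, either the median was under 20 counts in at least 1 of the organs (Otc, Nags, Arg1 in kidney, Arg2 in liver), or the gene was Cps1 or Arg1, with the correlations with Alb given above. The proximal tubule markers were not used in this grouping. The liver of CC035 was highest both in Gatm and in the sum of those markers (1121 CPM, beside a liver median of 44.9 CPM). Scaling bore on these calls: 5 of 30 were made with total counts and 10 with log2(TPM + 1). Of the 8 comparisons, 2 were called with total counts, Gatm between liver and lung (q = 0.042) and between lung and kidney (q = 0.013), and 6 were not. The ratio of SDs of Gatm between liver and kidney was 1.63 and fell to 1.04 with total counts (q = 0.96).

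**Figure D4:**
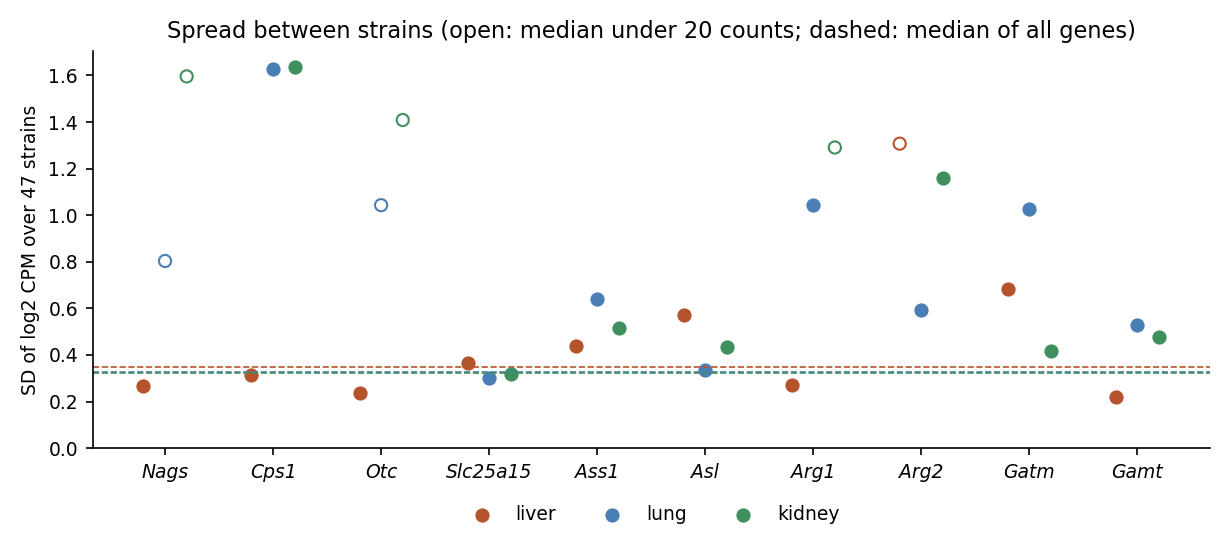
SD of log2 CPM over 47 strains for the 10 genes in liver, lung and kidney; open symbols mark a median under 20 counts. In liver the SD rises from 0.219 for Gamt to 0.681 for Gatm among genes with at least 20 counts, and in kidney Arg2 (1.16) lies above Slc25a15, Gatm, Asl, Gamt and Ass1.

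Strain levels were shared between organs for few of the genes. Pearson's r of rank inverse normal log2 CPM between 2 organs passed q of at most 0.1 (permutation, adjusted over all 12127 genes) in 4 of 30 comparisons, and with total counts in 0 of 30. Slc25a15 had r = 0.478 between liver and kidney (rho = 0.509, p = 0.0006, q = 0.0088, and r = 0.430 without the 2 strains farthest from the median), and r = 0.295 with total counts (q = 0.31). CC046 was highest in liver (995 CPM) and next to highest in kidney (228 CPM). Ass1 had r = 0.357 between liver and kidney (rho = 0.315, q = 0.080, and r = 0.285 without 2), and CC044 was highest in kidney with 694 CPM and among the 3 highest in liver. A positive correlation between liver and kidney was called for 18.5% of all genes, so that 2 of 10 is near the background. With the share of Rn45s and Lars2 regressed out, an alternative chosen after seeing the data, Ass1 had r = 0.322 (q = 0.13).

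Gatm had r = 0.521 between liver and lung (rho = 0.538, p = 0.00012, q = 0.0041, and r = 0.521 without the 2 strains farthest from the median), a call made for 10.5% of all genes, and r = 0.414 with total counts (q = 0.27). Gamt had r = 0.367 there (q = 0.10048, just outside the threshold). CC035 had the highest Gatm level in liver (57.2 CPM) and in kidney (879 CPM), and CC040 the highest in lung (37.4 CPM). CC021 was lowest in liver (5.32 CPM), and CC007 in kidney (241 CPM). The liver of CC035 was also the highest in the 7 proximal tubule markers, with a sum of 1121 CPM against a liver median of 44.9 CPM, followed by that of CC033 with 1065 CPM, whose Gatm was 28.9 CPM. Without CC035, an alternative chosen after seeing the data, Gatm had r = 0.474 between liver and lung (q = 0.016) and 0.199 between liver and kidney, where it was 0.312 with all strains (q = 0.14). Nags had r = 0.409 between lung and kidney (q = 0.040, called for 15.8% of all genes), at a median of 2 counts in lung and 1 in kidney. Such sparse counts give no finding.

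Within liver, the genes of the cycle rose and fell together across strains in part. Of 36 pairs among the 9 genes with at least 20 counts at the median, 5 passed q of at most 0.1 in the families of both genes, each adjusted over 12126 genes, and all 5 were positive. Cps1 took part in 4 of them, with Arg1 (r = 0.684, rho = 0.686, larger q = 0.017), Asl (r = 0.658, rho = 0.613, q = 0.0051), Ass1 (r = 0.614, rho = 0.606, q = 0.056) and Slc25a15 (r = 0.528, rho = 0.50, q = 0.017). Asl and Arg1 had r = 0.637 (rho = 0.662, q = 0.017). Without the 2 strains farthest from the median of Cps1 the 4 values were 0.649, 0.598, 0.564 and 0.510. As background, positive correlations were called with 6.59% of all genes for Cps1, 3.45% for Asl, 2.1% for Slc25a15, 1.56% for Arg1 and 0.28% for Ass1.

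Otc and Nags, although steps of the same mitochondrial sequence, were called with no other member, nor were Gatm and Gamt. Otc had r = 0.354 with Cps1 (larger q = 0.32) and 0.118 with Ass1, and r between Asl and Gatm was -0.486 (larger q = 0.104). A positive call was made with 0.264% of all genes for Otc, 6.0% for Nags and 0.099% for Gatm. Gamt in liver was correlated at this threshold with 0 of 12126 genes (0%) by the permutation test. Across livers, r with the log2 share of Rn45s and Lars2 was -0.48 for Cps1, -0.42 for Arg1, -0.38 for Nags, -0.36 for Asl and -0.34 for Ass1, and 0.40 for Gatm. With that share regressed out, 4 of the 5 pairs remained called, and Cps1 with Ass1 had r = 0.543 with a larger q of 0.29.

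The liver genes most like each member over 47 strains, as a description, were Got1 (r = 0.744) and Rps20 (0.713) for Cps1, Spp2 (0.599) and Acadsb (0.572) for Otc, Crcp (0.774) and Gpat4 (0.763) for Asl, and Bckdha (0.754) and Grb7 (0.738) for Nags. For Ass1 they were Cps1 (0.614) and Marc1 (0.608), for Arg1 Cps1 (0.684) and Gde1 (0.649), for Slc25a15 Nfs1 (0.684) and Slc35b1 (0.653), and for Gamt Rhobtb3 (0.523) and Atp7b (0.508). In kidney they were Tmem64 (0.615) and Ubr7 (0.581) for Gatm, and Ppp4r4 (0.609) and Chrdl1 (0.551) for Arg2. Got1, the cytosolic enzyme that supplies aspartate to the Ass1 step, was itself on the list of ammonia genes.

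Genes used as zone markers of the liver lobule were correlated with part of the cycle. Pck1, the gluconeogenic enzyme of the periportal zone, had r = 0.627 with Cps1 (q = 0.0020), 0.701 with Asl (q = 0.0051) and 0.449 with Arg1 (q = 0.082), each q adjusted over all genes. Sds, a serine dehydratase of the same zone, had r = 0.571 with Arg1 (q = 0.024), 0.498 with Asl (q = 0.027) and 0.479 with Cps1 (q = 0.016). The other periportal markers, Hal and Cyp2f2, passed with none of the 9 genes (r from -0.19 to 0.27). Among the pericentral markers, Glul, Cyp2e1 and Cyp1a2 passed with none (r from -0.33 to 0.26). Axin2, also pericentral, had r = -0.474 with Cps1 (q = 0.017, where negative calls were made with 4.68% of all genes). Oat, on the pericentral list too, went the other way, with r = 0.451 with Asl (q = 0.048). Arg1 had r = -0.48 with Axin2 (q = 0.064; negative calls were made with 0.445% of all genes for Arg1), and Nags r = 0.38 with Sds (q = 0.099). Outside the zone markers, Nags had r = 0.584 with Gcgr, the glucagon receptor (q = 0.0026), and 0.528 with Gpt (q = 0.0063). Positive calls were made with 6.0% of all genes for Nags.

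Within kidney, 2 of 21 pairs among the 7 genes with enough counts were called, Asl with Gamt (r = 0.492, rho = 0.524, larger q = 0.042) and Slc25a15 with Gamt (r = 0.447, rho = 0.462, q = 0.075). Positive calls were made with 1.93% of all genes for Asl, 2.03% for Gamt and 8.4% for Slc25a15. These 3 genes also moved with Slc5a2, the glucose transporter of the early proximal tubule: r was 0.632 for Asl (q = 0.016), 0.600 for Gamt (q = 0.013) and 0.555 for Slc25a15 (q = 0.0048). Of the 7 proximal tubule markers Gamt passed with 3, Asl and Slc25a15 with 2 each, and Ass1, Arg2, Gatm and Cps1 with none, and no member passed with any of 5 markers of the distal nephron and collecting duct. The part of proximal tubule content in the pairs was not tested. With the share of Rn45s and Lars2 regressed out, Slc25a15 with Gamt had r = 0.311 (larger q = 0.28), and Slc25a15 alone had r = -0.41 with that share. Gatm and Gamt had r = 0.419 (larger q = 0.36). Ass1, the partner of Asl in making arginine, had r = 0.09 with it. Arg2 in kidney was correlated with 0 of 12126 genes at this threshold by the permutation test. With 100000 permutations, the smallest possible p leaves a gene that stands alone in its family at a q above 0.1. The test could therefore not have called a lone partner of Arg2, whatever its r. Ppp4r4, named above, had r = 0.609 with it, and the count of 0 is not read as a lack of partners. Without the 4 strains highest in Alb neither kidney pair was called (r = 0.459 and 0.436), and in liver Cps1 with Ass1 (0.566) and with Slc25a15 (0.456) were not, which leaves 3 of the 7 pairs.

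**Figure D5:**
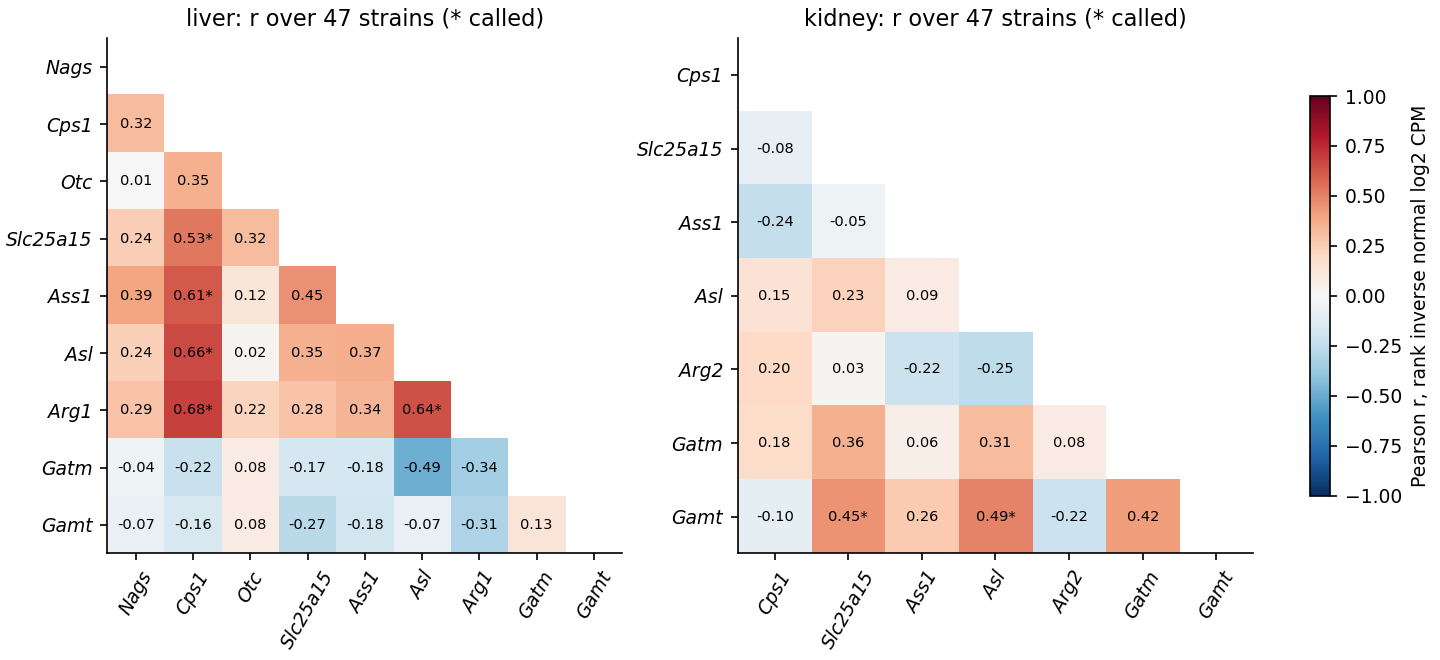
Pearson's r of rank inverse normal log2 CPM over 47 strains between members in liver (9 genes) and kidney (7 genes), on a color scale from -1 to 1; an asterisk marks pairs called in both genes' families. The 5 called liver pairs join Cps1, Asl, Ass1, Arg1 and Slc25a15, and the 2 called kidney pairs join Gamt to Asl and Slc25a15.

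Genes around the cycle were read from lists chosen with earlier results known, and are given by their counts, to be read against the 15.6% of all genes called higher in liver and the 20.8% called higher in kidney. Of 9 tested genes that handle ammonia and glutamine, 7 were higher in liver than in kidney and 1 lower, with a median log2 difference of 1.41. The alanine aminotransferases Gpt and Gpt2 were higher in liver by 3.65 and 3.54, and Glul, glutamine synthetase, by 1.35. Gls2, the liver glutaminase, was listed at 0 in 96 libraries with at most 22 counts and names 3 transcripts, and was not tested.

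For ornithine, proline and polyamines, 3 of 12 tested genes were higher in liver and 4 in kidney, not far from those shares (15.6% and 20.8% of all genes). Agmat, annotated as agmatinase, had a log2 difference of 5.95, Prodh2, hydroxyproline dehydrogenase, 2.84, and Oat, ornithine aminotransferase, 2.69. Odc1, which makes putrescine from ornithine, was higher in kidney (-3.86), as was Sms, spermine synthase (-2.31). The arginine-related genes of nitric oxide metabolism gave 2 of 3 tested genes higher in kidney (20.8% of all genes), among them Ddah1, which breaks down methylarginines (-2.75). Of 3 tested cationic amino acid transporters, Slc7a2, which imports arginine, was higher in liver (7.09) and Slc3a1, a subunit of the tubular cystine and dibasic amino acid carrier, in kidney (-3.14).

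Of the genes that take up or use creatine all 5 were tested, and against lung all 5 were lower in liver (a call made for 31% of all genes), with a median log2 difference of -2.79. Against kidney 3 were lower and 2 higher in liver. Slc6a8, the creatine transporter (-3.79), Ckb, the brain-type creatine kinase (-4.02), and Ckmt1, a mitochondrial form (-5.70), were lower in liver, and Ckm, the muscle form (5.24, SE 0.39), and Ckmt2, the mitochondrial form of muscle (3.75, SE 0.33), were higher. Ckm had the largest SE among the genes named here. Of the mitochondrial partners, Car5a, the carbonic anhydrase that supplies bicarbonate to Cps1, was higher in liver (5.62), and Slc25a12, an aspartate-glutamate carrier, in kidney (-1.42). Slc25a13, the liver aspartate-glutamate carrier, was at 0 in 58 libraries, names 2 transcripts and is not read as absent. Of 4 tested regulators 1, Gcgr, was higher in liver than in kidney (3.91), and none in kidney.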

How the data were processed

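Total RNA was sequenced after ribosomal depletion (TruSeq, single-end 50-base reads) from liver, lung and kidney of 47 strains. Per the paper's methods, the authors filtered reads by quality, aligned them with STAR 2.5.3a to strain-specific pseudo-genomes made from Build37 (mm9 in the submitters' processing notes), and quantified uniquely aligned reads with RSEM against RefSeq. The expected count deposited by the authors is an estimate per gene; 25 values over all files were not whole and counts were rounded. The TPM deposited by the authors divides counts by effective length and scales each library to the same sum. The FPKM that the authors deposited was left unused. Reads of genes that share sequence, or that lie on several transcripts, can be lost in such counts.

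Tissue and strain were taken from the labels, which give no batch, so that the batch covariate of the study's methods was left out. Genes above 1 CPM in 30% or more of the libraries were scaled by TMM (edgeR 4.0.16) and compared in limma-voom from limma 3.58.1 on R 4.3.3, fitting tissue and strain together, Benjamini-Hochberg adjustment over all genes, q no larger than 0.1 and a log2 difference of 1 or more in size. The strain is the replicate block, since by the study's design its 3 libraries come from 1 mouse; deviations of the same mouse had a median correlation of 0.173 (liver and kidney), 0.166 (liver and lung) and 0.211 (lung and kidney), against -0.00604 to -0.00482 between other mice.

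Log2 CPM (prior count 1) was used for spread between strains, tested by the Pitman-Morgan correlation with 100000 swaps of tissues within strains. Correlations used rank inverse normal values (Blom offset 0.375) and 100000 permutations, two-sided, with 1e-05 as the smallest p possible. Only genes with a median of at least 20 counts entered pairs within a tissue. Depth ran from 1738046 to 42158454 counts per library, and values at or under 3 counts were taken as unresolved, which covers counting error only. Windows of 50 bases were matched to NCBIM37 with GENCODE vM1, and promoters came from RefSeq (GRCm38.p6). The tests were tested on simulated data with known changes. DESeq2 1.42.0, edgeR's quasi-likelihood test, other scalings, TPM with a pseudocount of 1 or 0.1, and leaving out strains served as alternatives. Permutations and figures used numpy 2.4.6, scipy 1.17.1, matplotlib 3.10.9 and pandas 2.3.3 under Python 3.11.15.

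The 10 members, the pathway lists and the naming rule (all members; per list and direction the 2 genes with the largest called change and at least 10 CPM, and a few fixed by name; per member the 2 most correlated genes) were chosen with earlier results of these data known. Zone and tubule markers were named beside members after their values were seen. The values of 1 gene of the lists are not reported here.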

Additional observations from a re-analysis of the deposited data

Results flagged for a closer look

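The Gatm to Gamt ratio pointed in opposite directions in liver and kidney in every library, with a median of 0.0439 in liver, where Gamt was higher in 47 of 47 mice, and of 13.3 in kidney, where Gatm was higher in 47 of 47. The ratio compares TPM within a library, and the difference between the organs was not tested as such.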

How the results depend on the processing

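The numbers of members called were 10 (liver against kidney), 10 (liver against lung) and 7 (lung against kidney), and the fit with no replicate block gave 10, 10 and 7 as well. Over all alternatives they ran from 8 to 10, 9 to 10 and 6 to 7. No value was had for Otc and Nags between lung and kidney from the fit on these tissues alone, where they failed the count filter. Gatm between liver and lung changed sign, to -0.16 with total counts, -0.063 with total counts without Rn45s and Lars2, -0.24 with log2(TPM + 1) and -0.24 with log2(TPM + 0.1), and was 0.88 with DESeq2 size factors. Of 30 comparisons of spread, 18 were called, against 10 with log2(TPM + 1) and 5 with total counts; on log2(TPM + 1) the log2 ratio of SDs turned to -1.18 for Arg2 in liver against kidney, -0.52 for Arg2 in liver against lung and 0.53 for Nags in liver against lung. Of 30 correlations between organs, 4 were called, against 0 with total counts and 7 without the rank step. Of 36 pairs in liver and 21 in kidney, 7 were called, against 38 with log2(TPM + 1), 48 with total counts and, added after seeing the data, 3 without the strains highest in Alb. The cause of these shifts was not tested. Depth limits Otc in kidney, Nags in lung and kidney and Arg2 in liver, where most libraries had 3 counts or fewer.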
